A study of Mus musculus with 8 samples.

Results

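The cyclins of classes A, B, D and E are the regulatory subunits that switch on the cyclin-dependent kinases, and their transcripts were compared between wild type and VRK1-deficient mouse testes. The members were the 10 genes Ccna1, Ccna2, Ccnb1, Ccnb2, Ccnb3, Ccnd1, Ccnd2, Ccnd3, Ccne1 and Ccne2, found by gene name among the probes of the arrays. All 10 of 10 were present, of 27670 gene names on the array, and they were read by 16 of 41174 probes. Each of the 16 probes was bright enough to be tested, among 26962 tested probes, and 15 of them were well above background on all 8 arrays. Total RNA came from whole testes of male mice at postnatal day 8, during the first wave of spermatogenesis. The VRK1-deficient mice carried a β-geo gene trap in intron 3 of Vrk1, on an allele backcrossed to C57BL/6, and they are hypomorphs, in which some full-length VRK1 is still made. Wild type mice served as controls, and each genotype had 4 biological replicates with 1 array each. Because whole testis was used, fewer cells of a type and less RNA per cell cannot be told apart in any of the values.

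Cyclins are named for their rise and fall through the cell cycle. D cyclins bind Cdk4 and Cdk6 and begin the phosphorylation of the retinoblastoma protein, E cyclins bind Cdk2 at the entry to S phase, A cyclins act in S phase and G2, and B cyclins bind Cdk1 and drive mitosis. Most dividing cells use Ccna2, Ccnb1, Ccnb2, the D cyclins and the E cyclins, whereas Ccna1 is largely restricted to male germ cells, where it is needed for the first meiotic division, and Ccnb3 is transcribed in early meiotic prophase. Ccnd3 is a widely used D cyclin that was grouped here with Ccna1 and Ccnb3 as a cyclin of the germline, and the other 7 genes are called general cyclins. VRK1 is a kinase of the nucleus with a role in mitosis, and the question was whether the 2 groups of cyclins differ between the genotypes in the same way.

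Each signal is given as log2 of the background-subtracted intensity after subtracting the log2 75th percentile on the same array, so a value of 0 is the brightness of that percentile. Probes differ in how brightly they read a transcript, so values are compared between arrays for 1 probe and not between probes. Replicates 1 and 2 were hybridized on slide 1 and replicates 3 and 4 on slide 2, for each genotype, with wild type in positions 1 and 2 and VRK1-deficient in positions 3 and 4, so position and genotype cannot be told apart. The labels were first checked with Vrk1 itself. Its log2 signal was -0.20, -0.11, 0.59 and 0.35 on wild type replicates 1 to 4 and -3.97, -3.68, -3.58 and -4.17 on VRK1-deficient replicates 1 to 4, so the genotypes lay far apart. Whether the Vrk1 probe lies before or after the trap is not known here. The wild type arrays were less alike than the VRK1-deficient arrays, and wild type replicate 1 stood apart in lying closer to the other genotype than to its own. Across 26955 probes, which are not independent replicates, its correlation was 0.970 to 0.986 with the other wild type arrays and 0.987 to 0.990 with the VRK1-deficient arrays. Wild type replicate 3 was no closer to its own group (0.970 to 0.986), and its correlation with the VRK1-deficient arrays was 0.963 to 0.976. The changes of the brightest cyclin probes and the counts of calls are therefore also given without wild type replicate 1 where they rest on it. That array was picked from these data for lying near the other genotype, so leaving it out tends to widen the contrast. Calls and adjusted p without it show how far a result rests on that array, and are not separate evidence of a difference. Not every value of another probe or gene is given both ways.

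Of the 10 cyclin genes, each read by its brightest probe, 2 differed between genotypes at a limma adjusted p under 0.05, against 3.66% of all tested probes. Ccnb3 was the 1 gene called lower (1.98% of all tested probes were) and Ccna2 the 1 called higher (1.67% were). Without wild type replicate 1, 6 of the 10 were called, namely Ccna1, Ccna2, Ccnb3, Ccnd2, Ccne1 and Ccne2, against 28.4% of all tested probes. When another array was dropped in turn, limma called 0 of the 10, while 5 or 6 of them had an unadjusted p under 0.05. Those fits called only 3 to 68 of all 26962 tested probes, so the count of 0 says nothing particular to the cyclins. With all 8 arrays, 6 of the 10 had an unadjusted p under 0.05, against 28.8% of all tested probes. For Ccna2, Ccnb3 and Ccnd2, 3 of the 10, no wild type value lay among the VRK1-deficient values, against 16.7% of all tested probes. These counts are of genes and the shares are of probes. Counted by probe, limma called 2 of the 16 cyclin probes, 7 had no overlap and 11 had an unadjusted p under 0.05. Probes of the same gene are not independent. The log2 change, always VRK1-deficient minus wild type, had a median of -0.48 over the 10 genes and of 0.04 over all tested probes, with 6 of the 10 below 0 and 4 above, against 45.5% and 54.5% of all tested probes. It ran from -2.05 for Ccnb3 to 0.65 for Ccnd2, so the family did not move as a block.

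**Figure D1:**
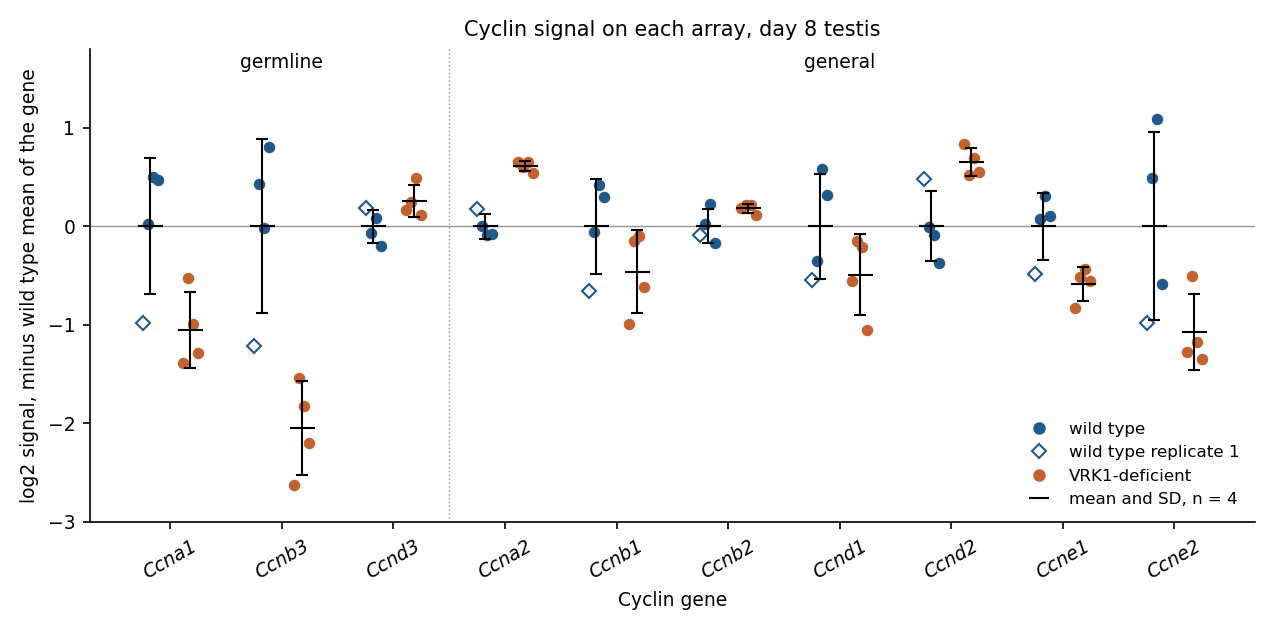
Log2 signal of each cyclin gene (brightest probe) on each of the 8 arrays, minus the mean of its 4 wild type arrays, with wild type in blue, VRK1-deficient in orange, and bars for the mean and SD of 4 arrays. The open diamond is wild type replicate 1. It lies below the other wild type arrays for Ccna1, Ccnb3, Ccnb1, Ccnd1, Ccne1 and Ccne2, and above them for Ccna2, Ccnd2 and Ccnd3. All 4 VRK1-deficient arrays lie below all wild type arrays for Ccnb3 and above them for Ccna2 and Ccnd2.

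Among the A cyclins, the general member was higher and the germline member had a lower mean that did not pass the test. Ccna2 (NM_009828) is needed for DNA replication and for entry into mitosis in most cells. Its log2 signal was 2.50, 2.32, 2.23 and 2.24 on wild type replicates 1 to 4 and 2.97, 2.91, 2.97 and 2.86 on VRK1-deficient replicates 1 to 4. Every VRK1-deficient array lay above every wild type array, and the 4 of them were close together. Ccna2 rose by 0.61 in log2 (limma adjusted p = 0.0407, standard error 0.11), to 153% of the wild type signal. The call was lost without scaling (0.43, limma adjusted p = 0.265) and without a filter on dim probes (limma adjusted p = 0.0835). Slide 1 alone gave 0.54 and slide 2 alone 0.68, with a limma adjusted p of 0.0473 with slide as a block. The limma adjusted p was 0.00403 without wild type replicate 1 and, when another array was dropped in turn, from 0.0599 to 0.146.

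Ccna1 (NM_007628) encodes the cyclin A of meiosis. The log2 signal of Ccna1 was -4.45, -3.46, -2.98 and -3.01 on wild type replicates 1 to 4 and -4.86, -4.00, -4.47 and -4.76 on VRK1-deficient replicates 1 to 4. Wild type replicate 1 lay among the VRK1-deficient arrays, and the other wild type arrays lay above all of them. The log2 change was -1.05 (limma adjusted p = 0.0864, standard error 0.33), a mean of 48.3% of the wild type signal. It was -0.48 within slide 1, which holds wild type replicate 1, and -1.62 within slide 2. Without wild type replicate 1 the change was -1.38 (limma adjusted p = 0.00541, standard error 0.22), while the alternatives gave an adjusted p from 0.00541 to 0.677. With a normexp background correction, which adds an offset of 50 to each intensity, the change was -0.28. Such an offset shrinks the log2 changes of dim probes more than those of bright ones. How much of the smaller change came from it was not tested. The study itself listed Ccna1 and Ccnb3 as lower on these same samples, so their direction is not independent evidence.

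Since both A cyclins were read on each array, their log2 difference was compared between genotypes, which removes any scaling common to the array. Ccna1 minus Ccna2 was -6.95, -5.77, -5.20 and -5.25 on the wild type arrays and -7.83, -6.91, -7.44 and -7.62 on the VRK1-deficient arrays. The size of such a difference depends on the 2 probes, and only its shift is read. The shift was -1.66, with wild type replicate 1 just inside the VRK1-deficient range. It was -1.01 on slide 1, -2.31 on slide 2 and -0.84 with the normexp correction. No p is given for this pair or for that of Ccnb3, since Ccna1 and Ccnb3 had been listed as lower on these samples. The shift was -2.05 without wild type replicate 1.

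Of the B cyclins, Ccnb3 fell, Ccnb2 stayed within the range of its wild type arrays, and the probes of Ccnb1 differed in the sign of their change without passing the test on all 8 arrays. Ccnb3 (NM_183015) lies on the X chromosome and is the B cyclin of early meiotic prophase. Arrays of wild type replicates 1 to 4 had a Ccnb3 log2 signal of -3.90, -2.25, -2.69 and -1.87, and those of VRK1-deficient replicates 1 to 4 had -5.31, -4.21, -4.50 and -4.88. All VRK1-deficient arrays were below all wild type arrays, with wild type replicate 1 the closest to them. The probe was well above background on 3 of the 4 VRK1-deficient arrays and on all wild type arrays, so the value of VRK1-deficient replicate 1 is near the limit of measurement. Ccnb3 fell by 2.05 in log2 (limma adjusted p = 0.0464, standard error 0.41), to 24.2% of the wild type signal, a mean 4.13-fold lower. Slide 1 alone gave -1.69 and slide 2 alone -2.41, with a limma adjusted p of 0.0489 with slide as a block. It was -2.45 without wild type replicate 1 (limma adjusted p = 0.00337), and when another array was dropped in turn the adjusted p ran from 0.0714 to 0.147. With the normexp correction the change was -0.73 (limma adjusted p = 0.0614), and without a filter on dim probes the limma adjusted p was 0.0882, so the call was lost in both.

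Ccnb2 (NM_007630), a general mitotic B cyclin, had a log2 signal of 3.80, 3.91, 4.12 and 3.72 on the wild type arrays and 4.07, 4.11, 4.10 and 4.00 on the VRK1-deficient arrays. All VRK1-deficient arrays lay within the wild type range. The log2 change was 0.18 (limma adjusted p = 0.324, standard error 0.12), with 0.23 on slide 1 and 0.13 on slide 2. Ccnb1 (NM_172301), the main activator of Cdk1 at the entry to mitosis, was read by 3 probes on chromosome 13 of build mm7. The brightest (A_52_P202770, chr13:97885282-97885341) had a log2 signal of 1.58, 2.18, 2.66 and 2.53 on the wild type arrays and 1.25, 2.09, 2.14 and 1.62 on the VRK1-deficient arrays. The genotypes overlapped, and the log2 change was -0.46 (limma adjusted p = 0.290, standard error 0.27), with -0.21 on slide 1, -0.71 on slide 2 and -0.68 without wild type replicate 1. With the mean of all 3 probes it was -0.07 (limma adjusted p = 0.807), so the value for the gene rested on the choice of probe. The middle probe (A_52_P558401, chr13:97885016-97885075) gave -0.20 (limma adjusted p = 0.512), with 0.01 on slide 1. The remaining probe (A_51_P287093, chr13:97884622-97884681) had a log2 signal of -0.52, -0.71, -0.42 and -0.72 on the wild type arrays and -0.27, -0.07, 0.03 and -0.30 on the VRK1-deficient arrays. Here the genotypes did not overlap and the VRK1-deficient arrays were the higher ones, with a change of 0.44 (limma adjusted p = 0.0704, standard error 0.13). It was 0.46 without wild type replicate 1 (limma adjusted p = 0.0332). The log2 difference between that probe and the brightest, a comparison chosen after the values were seen, shifted by 0.90 between genotypes, and by 1.15 without wild type replicate 1. What the 3 probes read along the transcript was not tested.

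Within the arrays, Ccnb3 minus Ccnb1 was -5.48, -4.43, -5.35 and -4.40 on the wild type arrays and -6.56, -6.30, -6.64 and -6.50 on the VRK1-deficient arrays. The groups did not overlap, and the shift was -1.58. It was -1.47 on slide 1, -1.69 on slide 2, -1.77 without wild type replicate 1, -1.97 with the mean of all Ccnb1 probes, and -0.28 with the normexp correction.

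The array probes that read the 2 meiotic cyclins are shown because the germline result turns on them. Both are 60 bases, given 5′ to 3′ as in the array files, with positions on build mm7 on the minus strand, and each can be read in 1 frame without a stop. The listed span of the Ccna1 probe is 1145 bases for 60 bases of probe.
Ccna1, chr3:55176600-55177744: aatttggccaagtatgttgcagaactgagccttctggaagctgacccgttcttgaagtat
Ccnb3, chrX:5413412-5413471: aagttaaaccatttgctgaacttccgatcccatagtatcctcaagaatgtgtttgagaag

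D cyclins link growth signals to the cell cycle, and 2 of the 3 had a mean above wild type. Ccnd2 (NM_009829) is the D cyclin that mice need for full growth of the gonads. Its log2 signal was 5.20, 4.71, 4.63 and 4.35 on wild type replicates 1 to 4 and 5.56, 5.24, 5.42 and 5.27 on VRK1-deficient replicates 1 to 4. All VRK1-deficient arrays were above all wild type arrays, and wild type replicate 1 was the highest wild type array. The log2 change was 0.65 (limma adjusted p = 0.0658, standard error 0.18), a mean of 157% of the wild type signal, which did not pass the threshold. Its other 2 probes gave 0.67 (limma adjusted p = 0.0611) and 0.49 (limma adjusted p = 0.103), also without overlap of the genotypes. Without wild type replicate 1 the change of the brightest probe was 0.81 (limma adjusted p = 0.00569), while the alternatives gave an adjusted p from 0.00569 to 0.525. It was 0.44 within slide 1 and 0.86 within slide 2.

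Ccnd1 (NM_007631), which marks dividing spermatogonia, was spotted 10 times on each array. The SD over its 10 spots was 0.04 to 0.12 on the log2 scale, small beside the SD between wild type arrays of 0.53. Its log2 signal was -0.09, 0.11, 1.03 and 0.77 on wild type replicates 1 to 4 and -0.10, 0.30, 0.25 and -0.59 on VRK1-deficient replicates 1 to 4. The genotypes overlapped on slide 1 and were apart on slide 2. The log2 change was -0.49 (limma adjusted p = 0.286, standard error 0.29), made up of 0.10 within slide 1 and -1.08 within slide 2, so the direction was not the same on the 2 slides. Without wild type replicate 1 it was -0.67 (limma adjusted p = 0.101), and dropping wild type replicate 3 or VRK1-deficient replicate 4 gave -0.30 (limma adjusted p of 0.508 and 0.544).

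Ccnd3 (NM_007632) had a log2 signal of 3.16, 2.91, 3.07 and 2.78 on the wild type arrays and 3.14, 3.23, 3.47 and 3.09 on the VRK1-deficient arrays. The genotypes overlapped, and the change was 0.25 (limma adjusted p = 0.234, standard error 0.13), the opposite sign to Ccna1 and Ccnb3. Slide 1 gave 0.15, slide 2 gave 0.36, and the arrays without wild type replicate 1 gave 0.31. Ccnd3 minus Ccnd1 was 3.25, 2.81, 2.03 and 2.01 on the wild type arrays and 3.24, 2.92, 3.22 and 3.69 on the VRK1-deficient arrays, a shift of 0.74 (exact two-sided permutation test over 4 and 4 arrays, p = 0.114). It was 0.05 on slide 1, 1.43 on slide 2, and 0.99 without wild type replicate 1, so it rested mostly on slide 2. No p is given without wild type replicate 1, the only wild type array inside the VRK1-deficient range. That array was singled out from these same data, so a test without it could not decide.

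Both E cyclins, the partners of Cdk2 at the start of S phase, had means below wild type. Ccne1 (NM_007633) had a log2 signal of 1.77, 2.33, 2.56 and 2.35 on wild type replicates 1 to 4 and 1.42, 1.74, 1.82 and 1.69 on VRK1-deficient replicates 1 to 4. Wild type replicate 1 lay inside the VRK1-deficient range and the other wild type arrays above it. The change was -0.58 (limma adjusted p = 0.0804, standard error 0.18), with -0.47 on slide 1 and -0.70 on slide 2. Without wild type replicate 1 it was -0.74 (limma adjusted p = 0.00662), while the alternatives gave an adjusted p from 0.00662 to 0.529. Its second probe gave -0.49 (limma adjusted p = 0.0715), without overlap of the genotypes. Ccne2 (NM_009830) had a log2 signal of -3.11, -1.64, -1.04 and -2.70 on the wild type arrays and -3.40, -2.62, -3.29 and -3.47 on the VRK1-deficient arrays. Its wild type arrays spread widely (SD 0.95), and the change was -1.07 (limma adjusted p = 0.139, standard error 0.43). Slide 1 gave -0.64 and slide 2 gave -1.51. The second Ccne2 probe gave -1.32 (limma adjusted p = 0.104). For the first probe the change was -1.40 without wild type replicate 1 (limma adjusted p = 0.0267), while the alternatives gave an adjusted p from 0.0267 to 0.656. It was -0.71 without wild type replicate 3 and -0.56 with the normexp correction, so its size rested on the arrays and the correction used.

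**Figure D2:**
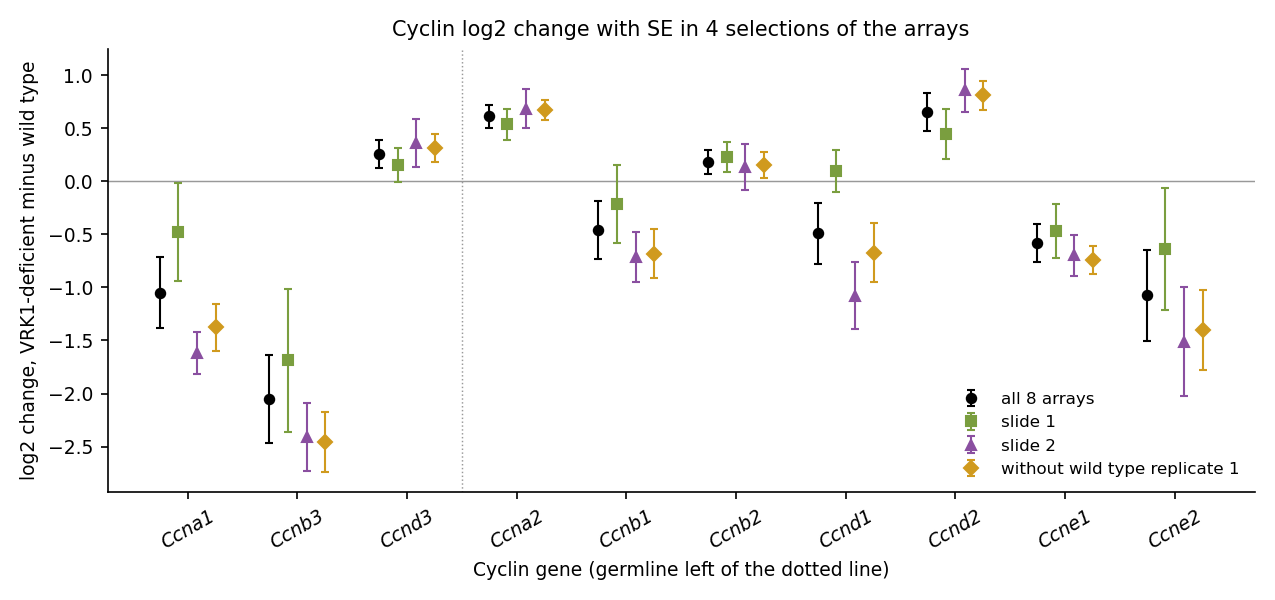
Log2 change (VRK1-deficient minus wild type) of each cyclin gene with its standard error from limma, for all 8 arrays, each slide alone, and all arrays but wild type replicate 1. Ccna1 moves from -0.48 on slide 1 to -1.62 on slide 2 and Ccnd1 from 0.10 to -1.08, whereas Ccna2 stays between 0.54 and 0.68.

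As groups, the 3 germline cyclins had a mean log2 change of -0.95 and a median of -1.05, and the 7 general cyclins a mean of -0.17 and a median of -0.46. The mean log2 signal of the germline cyclins minus that of the general cyclins was -3.39, -2.92, -3.18 and -2.59 on wild type replicates 1 to 4 and -4.02, -3.63, -3.75 and -3.81 on VRK1-deficient replicates 1 to 4. The difference between genotypes was -0.78 (-0.67 on slide 1, -0.89 on slide 2, -0.90 without wild type replicate 1, and -0.14 with the normexp correction), as a description with no test, since the members were chosen with results known. The offset in the normexp correction shrinks the changes of dim probes most, and Ccna1, Ccnb3 and Ccne2 were read by dim probes. Its part in the value of -0.14 was not tested. Ccna1 and Ccnb3 made up the germline shift and Ccnd3 had the other sign. The general group was mixed, with Ccna2 called higher, Ccnd2 and Ccnb2 above 0, and Ccnb1, Ccnd1, Ccne1 and Ccne2 below 0 without passing the test. These signs held under quantile, median and no scaling between arrays and under the normexp correction. Without scaling the median change of all tested probes was -0.14, and that of Ccna2 was 0.43 (limma adjusted p = 0.265).

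The partners of the cyclins were read from lists of regulators, whose counts stand beside 3.66% of all tested probes called and 28.8% at an unadjusted p under 0.05. Of the 9 genes of the list of cyclin-dependent kinases and their subunits, 1 was called, and the list had a median change of 0.04, the same as all tested probes. That gene was Cdk1, the kinase of the A and B cyclins, with a log2 signal of 1.83, 1.67, 1.55 and 1.63 on the wild type arrays and 2.13, 2.27, 2.14 and 2.07 on the VRK1-deficient arrays. It rose by 0.48 (limma adjusted p = 0.0492, standard error 0.11), the same direction as Ccna2. With slide as a block the limma adjusted p was 0.0507, and without scaling the change was 0.30 (limma adjusted p = 0.485), so the call was lost in both. The mean of Cdk4, a partner of the D cyclins, differed by 0.49 (limma adjusted p = 0.0885), with no overlap of the genotypes. Without wild type replicate 1 the change of Cdk4 was 0.59 (limma adjusted p = 0.0177). The log2 change was 0.04 for Cdk6 (limma adjusted p = 0.846) and 0.03 for Cdk2 (limma adjusted p = 0.939). Without scaling between arrays, both took the other sign, with -0.14 for Cdk6 and -0.15 for Cdk2, as did Cdk6 on slide 1 (-0.02) and Cdk2 on slide 2 (-0.05). Cdk2 was also below 0 without wild type replicate 1 (-0.11).

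Of the 7 inhibitors of these kinases, 1 was called lower and 1 higher, with a median change of -0.07. Cdkn2a, whose locus encodes p16INK4a and p19ARF, fell by 1.42 (limma adjusted p = 0.0454, standard error 0.28), to 37.4% of the wild type signal. Its log2 signal was -2.32, -1.10, -1.17 and -0.96 on the wild type arrays and -3.02, -2.86, -2.59 and -2.77 on the VRK1-deficient arrays. Cdkn2c, which encodes the Cdk4 and Cdk6 inhibitor p18INK4c, rose by 0.60 (limma adjusted p = 0.0477, standard error 0.13), a call that was lost without scaling (0.42, limma adjusted p = 0.297) and with the normexp correction (limma adjusted p = 0.0701). Cdkn1a (p21) gave 0.26 (limma adjusted p = 0.233) and Cdkn1b (p27) gave -0.18 (limma adjusted p = 0.484). Each of the calls of Cdk1, Cdkn2a and Cdkn2c was lost when any array except that of wild type replicate 1 was dropped, where the lowest limma adjusted p was 0.0714, 0.0714 and 0.0696.

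Of 16 tested genes of the list of RB and E2F factors, 1 was called. E2f2, an activator of S phase genes, fell by 0.70 (limma adjusted p = 0.0498), and the list had a median of -0.11. The call was lost with slide as a block (limma adjusted p = 0.0545), without scaling (limma adjusted p = 0.0593) and when any array except wild type replicate 1 was dropped (0.0722 at the lowest). None of the 8 genes of the phosphorylation switch that turns Cdk1 on and off was called by limma, and 1 had an unadjusted p under 0.05. The largest changes there were those of the phosphatases Cdc25b and Cdc25a, 0.39 and -0.25, with limma adjusted p of 0.0630 and 0.180. In the list of 12 genes for cyclin destruction limma called 0, with 3 at an unadjusted p under 0.05. The log2 change was 0.45 for Ube2c, an enzyme that works with the anaphase-promoting complex (limma adjusted p = 0.109), and -0.36 for Cdc20, an activator of that complex (limma adjusted p = 0.124). Of 17 tested genes of a wider list, of other cyclins and proteins that bind cyclins, 1 was called, with a median of -0.20. This was Ccno, which fell by 1.66 (limma adjusted p = 0.0454, standard error 0.33), to 31.6% of the wild type signal. That call held with slide as a block (limma adjusted p = 0.0473) and was lost when any array except wild type replicate 1 was dropped (0.0698 at the lowest). Limma called 0 of 12 transcription factors known at the cyclin D1 promoter, with 3 at an unadjusted p under 0.05 and a median of 0.19. The largest changes there were -0.85 for Lef1 (limma adjusted p = 0.0906) and 0.81 for Junb (limma adjusted p = 0.161). General proliferation genes showed no call in limma among 14, with 1 at an unadjusted p under 0.05 and a median of -0.08. The spindle genes Bub1 and Kif11 had the largest changes, -0.51 (limma adjusted p = 0.269) and 0.46 (limma adjusted p = 0.0866). Both were called without wild type replicate 1, at -0.79 (limma adjusted p = 0.0205) and 0.54 (limma adjusted p = 0.0270). Bub1 gave -0.06 on slide 1 and -0.96 on slide 2. With wild type replicate 1 left out, limma called 4 of the 9 kinases and subunits, 4 of the 7 inhibitors, 1 of the 8 switch genes, 4 of the 16 RB and E2F factors, 2 of the 12 destruction genes, 7 of the 17 genes of the wider cyclin list, 2 of the 12 transcription factors and 2 of the 14 proliferation genes, against 28.4% of all tested probes. Within slide 1 and slide 2 the medians were 0.18 and 0.11 for the kinases, 0.08 and -0.24 for the inhibitors and 0.07 and -0.20 for the proliferation genes, against about 0 and 0.07 for all tested probes.

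Markers of germ cells were read beside the cyclins, and their part in the cyclin values was not tested. Over all tested probes, 3.66% were called, 45.5% had a change below 0 and 54.5% above. All 9 markers of meiotic prophase had a change below 0, of which Sycp2 and Stag3 were called, with a median of -1.14. Their signals, summed over the list relative to the 75th percentile, were 14.6, 28.9, 33.4 and 33.4 on wild type replicates 1 to 4 and 10.6, 15.1, 13.8 and 10.6 on VRK1-deficient replicates 1 to 4, with Smc1b the brightest. Wild type replicate 1 was thus the low wild type array for these markers too, and lay within the VRK1-deficient range. The 5 markers of differentiating spermatogonia with a probe were all below 0, with Dmrtb1 called, a median of -1.48, and a summed signal of 24.3, 57.0, 78.0 and 77.7 in wild type and 12.8, 29.2, 27.5 and 17.4 in VRK1-deficient testes, led by Stra8. All 6 markers of germ cells in general were below 0, with Tdrd1 called and a median of -0.91. Their summed signal was 30.1, 60.6, 80.1 and 79.1 in wild type and 21.6, 35.8, 34.0 and 25.2 in VRK1-deficient testes, led by Tex101. Stra8, Dazl, Lin28a, Sycp2, Smc1b and Stag3 were on the study's own list of lower genes, so these directions are not independent evidence. Of 8 markers of undifferentiated spermatogonia, 4 were below 0 and 4 above. Sall4 and Lin28a were called lower, and the median was -0.17. With slide as a block the calls of Sall4, Lin28a, Dmrtb1 and Tdrd1 were lost, with limma adjusted p of 0.0539, 0.0557, 0.0541 and 0.0517, while those of Sycp2 and Stag3 held. Each of these 6 calls was lost when any array except wild type replicate 1 was dropped. The summed signal of the 8 markers of undifferentiated spermatogonia was 3.00, 4.89, 4.80 and 3.84 in wild type and 3.00, 3.46, 3.08 and 2.91 in VRK1-deficient testes, led by Id4. At an unadjusted p under 0.05 stood 8 of the 9 meiotic, 4 of the 5 differentiating, 6 of the 6 general and 7 of the 8 undifferentiated markers, against 28.8% of all tested probes. Limma called 8, 5, 6 and 7 of them when wild type replicate 1 was left out, against 28.4% of all tested probes. The undifferentiated markers called there went both ways, with Gfra1, Nanos2 and Etv5 higher and Nanos3, Sall4, Lin28a and Neurog3 lower. Within slide 1 and slide 2 the medians were -0.70 and -1.60 for meiotic prophase, -1.02 and -1.85 for differentiating spermatogonia and -0.59 and -1.26 for germ cells in general.

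Somatic markers were read in the same way, beside the same shares and 28.8% of all tested probes at an unadjusted p under 0.05, and their part was not tested either. Of 9 Sertoli cell markers, 8 had a change above 0 and none was called by limma, with 6 at an unadjusted p under 0.05 and a median of 0.45. Their summed signal was 298, 215, 222 and 194 on wild type replicates 1 to 4 and 315, 268, 269 and 304 on VRK1-deficient replicates 1 to 4, led by Clu, so that wild type replicate 1 again lay in the range of the VRK1-deficient arrays. The median was 0.32 on slide 1, 0.58 on slide 2 and 0.57 when wild type replicate 1 was left out, where limma called 7 of the 9, against 28.4% of all tested probes. Limma called 0 of 6 Leydig cell markers (median 0.28, 2 at an unadjusted p under 0.05), whose summed signal was 51.2, 33.5, 41.4 and 41.2 in wild type and 54.2, 57.2, 44.7 and 44.1 in VRK1-deficient testes, led by Hsd3b1. Of 4 peritubular markers, all below 0, Cnn1 was called lower, with a median of -0.07, and this call too was lost when any array except wild type replicate 1 was dropped. Their summed signal, led by Acta2, was 145 to 152 in 3 wild type arrays and 138 in wild type replicate 2, and 131, 143, 154 and 120 in VRK1-deficient testes. Limma called 0 of 3 endothelial (median 0.35, 1 at an unadjusted p under 0.05), 0 of 3 macrophage (median 0.09, 0 at an unadjusted p under 0.05) and 0 of 2 red cell markers (median -0.23, 0 at an unadjusted p under 0.05). Their brightest genes were Cdh5, Csf1r and Hba-a1. Limma called 0 of 3 tested spermatid markers (median 0.11, 0 at an unadjusted p under 0.05), led by Tnp1, and Acrv1 was not well above background on any array. When wild type replicate 1 was left out, limma called 2 of the 6 Leydig, 1 of the 4 peritubular, 1 of the 3 endothelial and 1 of the 3 spermatid markers, and no macrophage or red cell marker. The summed signal of the spermatid markers was 0.40 to 0.58 in wild type and 0.39 to 0.53 in VRK1-deficient testes.

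The genes most like Ccna1, Ccnb3, Ccnd1, Ccnd2 and Ccnd3 over the 8 arrays were found by Pearson's r of the log2 signals, as a description, over 17946 other genes and with both genotypes included. For Ccna1 they were Naa25, Pih1d2 and Parpbp (r of 0.996, 0.994 and 0.993), with log2 changes of -0.46, -0.51 and -0.59, none of them called. For Ccnb3 they were Nmrk1, Tjp3 and Esx1 (r of 0.995, 0.995 and 0.995). Tjp3 and Esx1, the second an X-linked homeobox gene, fell by 1.56 and 2.35 (limma adjusted p of 0.0482 and 0.0473), while Nmrk1 had a change of -0.55 and was not called (limma adjusted p = 0.0633). For Ccnd2 they were Hspb1, Syde1 and Foxs1 (r of 0.995, 0.994 and 0.994), with changes of 0.59, 0.64 and 0.68 and none called. Those of Ccnd1 were Nhp2, Trip4 and Fbxo38 (r of 0.989, 0.989 and 0.985), with changes near -0.20. Those of Ccnd3 were Socs3, Pycrl and a transcript named only by its clone (r of 0.993, 0.981 and 0.960).

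Promoters from RefSeq (build GRCm38.p6) were matched by symbol for 6 of the 10 genes, with 7 starts, since Ccnd3 has 2. Those of Ccna2, Ccnd1, Ccnd2 and Ccne2 were not in the table. The 250 bases before each start were searched on both strands for short motifs known from cell cycle promoters. The CCAAT box (CCAAT) was in 4 of the 7 and in 33.8% of 32851 promoters of the same length, and the GC box (GGGCGG) was in 5 of the 7 and in 32.7%. The short site of the cAMP response element (TGACG) was in 3 of the 7 and in 17.8%, and the CHR element (TTTGAA) in 1 of the 7 and in 16.0%. The whole cAMP response element (TGACGTCA, in 1.55%), which contains the short site, the E2F motifs TTTCGCGC (0.256%) and TTTGGCGC (0.417%), the E-box (CACGTG, 6.02%) and the TATA box (TATAAA, 12.4%) were in 0 of the 7. The promoters of the B cyclins are printed because this class holds both a called germline gene and 2 general genes. Ccnb2 has 3 CCAAT boxes, Ccnb1 has 2 and Ccnb3 has none of the letters searched in its window. The 150 bases before each start are given 5′ to 3′ on the minus strand, with each CCAAT in capitals.
Ccnb1, chr13:100786487-100786636: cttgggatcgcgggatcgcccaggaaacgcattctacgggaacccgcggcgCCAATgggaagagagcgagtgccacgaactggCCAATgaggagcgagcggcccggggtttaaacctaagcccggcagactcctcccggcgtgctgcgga
Ccnb2, chr9:70421555-70421704: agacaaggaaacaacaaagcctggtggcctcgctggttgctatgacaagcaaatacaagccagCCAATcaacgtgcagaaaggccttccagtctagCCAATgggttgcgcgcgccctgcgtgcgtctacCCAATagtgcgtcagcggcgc
Ccnb3, chrX:7041620-7041769: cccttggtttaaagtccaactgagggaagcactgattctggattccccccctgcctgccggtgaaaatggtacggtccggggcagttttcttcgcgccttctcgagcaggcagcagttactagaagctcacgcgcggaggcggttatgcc
A match is a description of the letters, not of a bound site. Ccna1 has 1 CCAAT box and 1 GC box in its window, Ccne1 has 4 GC boxes, and the 2 starts of Ccnd3 each have a TGACG site.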

How the data were processed

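The authors used 0.5 µg of total RNA from testes at postnatal day 8 for each Cy3 labeling and Agilent arrays read in 1 color. Agilent Feature Extraction (version 9.5.3.1 in the array files and sample records) gave the deposited processed signals, which are linear intensity values with the background subtracted. The intensity values in the deposited value table equaled them (0 unequal per array), so its scale and direction are known. The median signal lay between 50.8 and 80.1 per array, and 63.6% to 69.5% of spots were well above background.

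Each array had 43379 spots that were not controls. Spots flagged as outliers were left out (58 to 134 per array), and none was saturated. Log2 signals were scaled by the 75th percentile of the array, and the mean over spots stood for a probe. The test took in probes that were well above background on 4 or more of the 8 arrays. For probes with several spots, 1 such spot sufficed. A share of 0.5 of the spots was required at first, and this was changed after the data were seen so that the count of tested probes matched earlier processing of these data. The first rule was kept as an alternative. Genotypes were compared with limma 3.58.1 in R 4.3.3 over all 26962 tested probes, with Benjamini-Hochberg adjustment and a call at an adjusted p under 0.05. The test was run on simulated data with independent noise for each probe and array, in which 200 of 26955 probes were changed by 1 to 2 in log2. It called 83% of these and 11 unchanged probes, and 0 probes when none was changed. Differences shared by many probes of an array were not simulated, so this run does not bear on how calls depend on single arrays. The brightest probe stood for a gene. Symbols came from a RefSeq table through the accession (22951 probes), symbol (6659) or synonym (3109), and 8455 probes kept the name in the files. Other tools were Python 3.11.15, scipy 1.17.1, matplotlib 3.10.9, pandas 2.3.3, numpy 2.4.6 and the R package data.table (1.17.8). The number of arrays limits the precision.

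The members and the lists were chosen with earlier results of these data known. Genes named are the 10 cyclins, Vrk1, the called genes of each list of regulators (or the 2 with the largest change), 8 fixed kinases and inhibitors, the 3 genes most like each of 5 cyclins, and the called and brightest genes of the cell type lists. Alternatives covered scaling, background, filter, probe choice, slide and replicate as blocks, each slide alone, each array left out, the test, and limma's variance settings. The normexp background correction used an offset of 50.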

Additional observations from a re-analysis of the deposited data

Results flagged for a closer look

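One group of 4 arrays had a value far from the others, among 32 groups of 4 arrays checked over the 16 cyclin probes, and chance gives about 1 in 20. For the second, dimmer Ccne1 probe (A_52_P796682), wild type replicate 1 had a log2 signal of -2.43, and the other wild type arrays lay between -2.07 and -2.04. The gap was 0.917 of the range of the 4 arrays. The same array lay lowest in wild type for the brightest Ccne1 probe, at 1.77.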

How the results depend on the processing

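The count of 986 called probes was 641 with slide as a block, 3 within slide 1, 17 without a filter on dim probes, 162 with the methods' t-test after Benjamini-Hochberg adjustment and 1916 with an intensity trend and robust variances. Leaving out 1 array gave 3 to 7659, the highest without wild type replicate 1. The t-test at an unadjusted p of at most 0.05, with a change of at least 2-fold added, gave 775 probes and 2 of the 10 cyclin genes. Without scaling, 6.99% of the calls were higher in VRK1-deficient testes, against 45.7% with it. The methods' t-test gave 70.4% and the replicate block 32.5%. Of the 10 cyclin genes, 2 were called, and 1 without scaling (Ccnb3), 1 with a filter on all 8 arrays (Ccna2, with Ccnb3 not tested), 1 with the methods' t-test after adjustment (Ccna2), 0 without a filter (6 at an unadjusted p under 0.05) and 0 within slide 1 (1 at an unadjusted p under 0.05). Leaving out 1 array gave 0 to 6. The 2 called genes were Ccna1 and Ccnb3 within slide 2 and Ccna2 and Ccne1 with the normexp correction. With an intensity trend and robust variances 3 were called, Ccnd2 beside Ccna2 and Ccnb3. The cause of these differences was not tested. The filter first used, on a share of 0.5 of the spots and kept as an alternative after the data were seen, tested 26948 probes and gave 986 and 2.

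With a replicate block, which fits the replicate number as a term, 2280 probes and 4 cyclin genes were called, Ccnd2 and Ccne1 beside Ccna2 and Ccnb3. The deviations of same-numbered arrays correlated at 0.468, 0.0734, 0.188 and -0.138, and not every array correlated best with its own number, so the samples were not treated as paired.

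The germline minus general difference of -0.78 was -0.14 with the normexp correction and -0.90 to -0.64 with 1 array left out. Ccna1 minus Ccna2 shifted by -1.01 within slide 1 and -2.31 within slide 2, by -0.84 with the normexp correction, and by -2.05 to -1.46 with 1 array left out. Ccnb3 minus Ccnb1 shifted by -0.28 with the normexp correction and by -1.77 to -1.41 with 1 array left out. Ccnd3 minus Ccnd1 shifted by 0.0539 within slide 1, by 1.43 within slide 2 and by 0.57 to 0.99 with 1 array left out. Ccnd1 changed sign within slide 1 (0.10). The brightest probes of the other cyclins kept the sign of their change, and the Ccnb1 probe A_52_P558401 did not (0.01 within slide 1). Pair shifts have no value under the t-test, the filters or the variance settings.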
